A study of Homo sapiens with 30 samples.

Results

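The proteasome genes described here were the protein-coding rows whose symbol starts with PSMA, PSMB, PSMC, PSMD, PSME, PSMF or PSMG, 50 of the 60675 rows of the count table. They were followed in HT29, an established human colorectal adenocarcinoma cell line, by RNA sequencing. Cells had been kept for 24 h in vehicle or in the 70% ethanol extract of 1 of 4 traditional herbal formulas. The groups were vehicle (n = 3), Soshiho-tang and Yijin-tang (n = 3 at each of 500, 100 and 20 µg/mL), Okbyeongpung-san (n = 2 at each dose) and Soyo-san (1 library at each dose). By the design text, extracts whose IC20 lay below 500 µg/mL had the IC20 as their top concentration, so the doses, given here as labelled, are uncertain. Vehicle was 0.1% DMSO by the labels and 2% DMSO by the design text, so the solvent content is uncertain too. Nothing states that replicates were separate cultures, and p-values therefore measure only the spread between these libraries, which may be technical. All groups were the same cell line, with no genetic change named.

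The proteasome is the protease that degrades proteins tagged with ubiquitin. Its 20S core is a barrel of stacked rings, with alpha subunits (PSMA) at the ends and beta subunits (PSMB) inside, of which PSMB5, PSMB6 and PSMB7 carry the catalytic sites. The 19S regulatory particle, made of ATPases (PSMC) and non-ATPase subunits (PSMD), binds tagged proteins, removes ubiquitin, unfolds the protein and feeds it into the core, and core and 19S together form the 26S proteasome. In cells exposed to interferon, PSMB9, PSMB10 and PSMB8 replace PSMB6, PSMB7 and PSMB5 to form the immunoproteasome, which favours peptides for presentation on MHC class I. Transcription of the constitutive subunits is known to be raised by the factor NFE2L1 when proteasome activity falls, through antioxidant response elements in subunit promoters. NFE2L2, a related factor of the oxidative stress response, is known to act on such elements as well.

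By role, 7 members encode alpha subunits of the core, 7 constitutive beta subunits, 3 immunoproteasome beta subunits, 6 ATPases and 11 non-ATPase subunits of the 19S particle. A further 3 are chaperones of 19S assembly (PSMD5, PSMD9, PSMD10), 4 are chaperones of 20S assembly (PSMG1 to PSMG4), 5 are activators or an inhibitor that bind the ends of the core (PSME1 to PSME4, PSMF1), and 2 are tissue-restricted core subunits (PSMA8 of testis, PSMB11 of thymus). The other 2, PSMC3IP and PSME3IP1, carry the symbol by their name as interacting proteins and are no subunits. Another 51 rows share the symbol start but are pseudogenes or noncoding RNAs and were not counted as members. Members lie on 17 chromosomes, with 8 on chromosome 14, and PSMB8 and PSMB9 lie next to the peptide transporter genes TAP2 and TAP1 on chromosome 6.

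Promoter sequence was available from RefSeq (GRCh38.p14) for 44 of the 50 members, as windows of 300 bases from 250 before to 50 after a transcript start. These members had 55 windows, and for every motif a member was counted if any of its windows held it. Shares of members and of single windows are thus in different units, which favours the members. The core of the antioxidant response element, TGACNNNGC on either strand, was found in windows of 15 of the 44 members (34.1%), beside 13.3% of all 35116 promoter windows of that length. The members whose sites are shown were chosen to set genes that rose with the highest Soshiho-tang dose (PSMD12, PSMB3, PSMD3) beside genes that did not pass as higher (PSMD9, PSME1). None of these windows overlaps an annotated gene in GENCODE 29, and all end upstream of the RefSeq start. Sequences run 5′ to 3′ on the strand of the gene, with the element in capitals.
PSMD12 (chr17:67366719-67366757, minus strand): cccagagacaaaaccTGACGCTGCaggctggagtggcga
PSMB3 (chr17:38752622-38752660, plus strand): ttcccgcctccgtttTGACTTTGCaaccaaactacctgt
PSMD3 (chr17:39980755-39980793, plus strand): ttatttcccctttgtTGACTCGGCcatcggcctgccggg
PSMD9 (chr12:121888673-121888711, plus strand): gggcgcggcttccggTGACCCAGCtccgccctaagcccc
PSME1 (chr14:24136093-24136131, plus strand): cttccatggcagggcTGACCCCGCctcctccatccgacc

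A second motif is the core of the interferon-stimulated response element, searched on either strand as GAAA, 2 free bases and GAAA. It was found in promoter windows of 7 of the 44 members (15.9%; 3.57% of all windows): PSMA4, PSMB4, PSMB8, PSMB10, PSME1, PSME2 and PSMG4. In PSMB10 (chr16:67936851-67936886, minus strand), PSME2 (chr14:24146614-24146653, minus strand) and PSMG4 (chr6:3258899-3258938, plus strand) the site read GAAAGCGAAA. Each of these stretches overlapped exon sequence of the same gene in GENCODE 29, and whether the site itself lies in the exon was not checked. The site of PSMB4, a constitutive beta subunit, lies upstream of its annotated gene and is shown because it differs at the free positions.
PSMB4 (chr1:151399490-151399529, plus strand): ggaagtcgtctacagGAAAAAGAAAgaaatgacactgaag

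Levels are counts per M (CPM) after TMM scaling between libraries, and group differences as log2 fold changes with their standard error (SE) from edgeR. Changed genes are those with a Benjamini-Hochberg adjusted p below 0.05 over all genes tested. The libraries held 18.5 M to 36.2 M counts. Epithelial markers were present in every library (EPCAM 444 to 568 CPM, KRT8 5510 to 7400 CPM, LGALS4 351 to 468 CPM), and the leukocyte markers PTPRC and CD3E reached at most 0.11 CPM. The 3 vehicle libraries lay at -19.8 to -32.5 on a second principal component that held 6.2% of the variance, and they carry a separate series of library names. Of the extract libraries, Okbyeongpung-san replicate 2 at 100 µg/mL lay nearest to them, at -14.1 with its own replicate at 8.9, and the others lay between -6.2 and 9.4. On the first component (11.9% of the variance) Soshiho-tang at 500 µg/mL lay at 33.1 to 38.1 and all other libraries at or below 11.6. A difference from vehicle and a difference between these library series cannot be told apart. For that reason the lowest dose of the same formula serves as a second reference. The vehicle libraries also differed more among themselves than replicates of Soshiho-tang or Yijin-tang did. The shared fit pools that spread, so p-values against vehicle may be too small. Mitochondrial genes took 11.48% to 13.93% of counts in vehicle and 9.06% to 10.78% in Soshiho-tang at 500 µg/mL. With those genes left out, which was chosen after seeing the data, 29 members were higher at that dose than in vehicle and 35 than at its lowest dose. How many of all genes were called in that run is not given here.

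In vehicle, proteasome genes were unequal in level. Per kb of the longest coding transcript annotated as principal, PSME3 (an activator ring subunit of the nucleus) at 278 CPM per kb, PSMB3 at 265 and PSMA7 at 258 stood highest. Constitutive 26S subunits ranged down from PSMB3 and PSMA7 to PSMC6 at 19.7 and PSMC1 at 16.2 CPM per kb. This order depends on the length chosen, 4448 bases for PSMC1 and 2188 for PSMC6. Without division by length PSMC1 had 72.1 CPM and PSMC6 43.0 CPM. The immunoproteasome genes were at the low end, with PSMB10 at 15.3, PSMB8 at 5.42 and PSMB9 at 0.315 CPM per kb. PSMB9 had 1 to 14 counts per library, and its gene model overlaps those of TAP1 and PSMB8, so its values are uncertain. PSMA8 had no count in any of the 30 libraries, which allows up to 0.00409 CPM over all of them (3 counts of the total), and PSMB11 had 2 counts, both in 1 library.

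Summed over the 31 constitutive core and 19S subunits, expression was highest in the libraries of Soshiho-tang at 500 µg/mL. The sums were 4266, 4608 and 4682 CPM in vehicle, 4444, 4479 and 4492 CPM in Soshiho-tang at 20 µg/mL, 4469, 4604 and 4710 CPM at 100 µg/mL, and 5199, 5252 and 5283 CPM at 500 µg/mL. Yijin-tang at 500 µg/mL gave 4686, 4794 and 4798 CPM, against 4420, 4491 and 4560 CPM at 20 µg/mL. Okbyeongpung-san at 500 µg/mL gave 5055 and 5068 CPM, against 4502 and 4627 CPM at 20 µg/mL. In each of the 3 formulas all libraries of the highest dose lay above all libraries of vehicle and of that formula's lowest dose. In Soyo-san the single libraries gave 4500, 4628 and 4948 CPM at 20, 100 and 500 µg/mL. In bulk RNA, a change in the number of cells of a kind and a change in RNA per cell cannot be told apart.

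**Figure D1:**
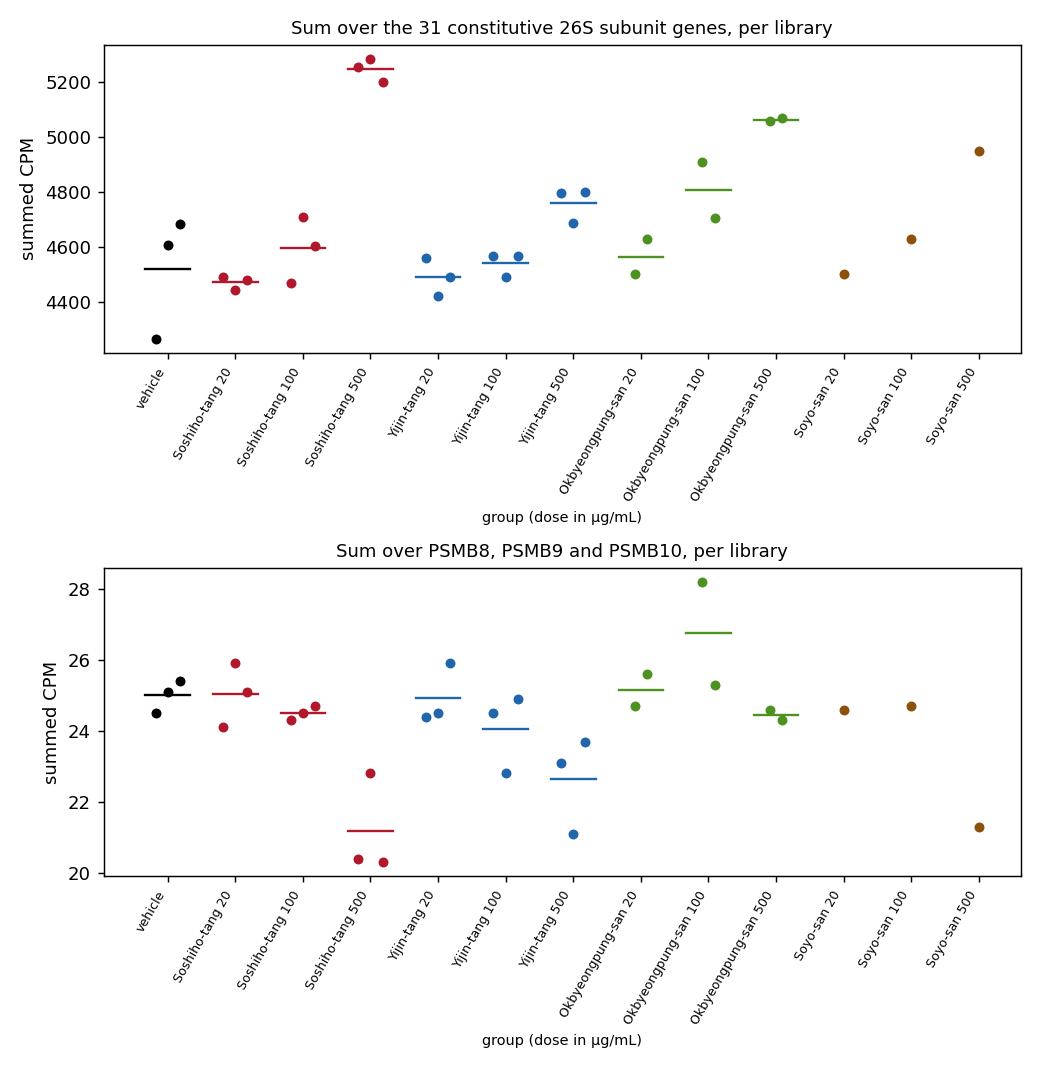
Summed CPM per library (points; horizontal lines are group means) over the 31 constitutive 26S subunit genes (top) and over PSMB8, PSMB9 and PSMB10 (bottom), by group with the dose in µg/mL; the y axes do not start at 0. The 3 libraries of Soshiho-tang at 500 µg/mL lie highest in the top panel, between 5199 and 5283 CPM, and between 20.3 and 22.8 CPM in the bottom panel, where vehicle lies between 24.5 and 25.4 CPM.

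Soshiho-tang at 500 µg/mL was the condition with the most changed members. Against vehicle, 30 of 48 tested members were higher and 3 were lower, with a median log2 difference of 0.17; of all 15882 genes tested, 39.2% were called, 21% higher and 18.3% lower, and their median was -0.01. Against Soshiho-tang at 20 µg/mL, 33 of 48 were higher and 1 was lower (median 0.20), where 26.8% of all genes were called, 13.3% higher and 13.5% lower. All libraries of the high dose lay above all vehicle libraries for 28 members and below for 3 (21.4% and 21.8% of all genes). The rises were small, the largest being 0.52 on the log2 scale.

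The rise covered nearly the whole 26S proteasome. Of the 31 constitutive subunits, 29 were higher at 500 than at 20 µg/mL, none was lower by edgeR, and all 31 fold changes were positive, from 0.09 for PSMD6 to 0.33 for PSMD14, with a median of 0.23. The 2 that did not pass were PSMA4 (0.19 ± 0.0722 SE, adjusted p = 0.062) and PSMD6 (0.09 ± 0.0513 SE, adjusted p = 0.23). Of the 17 other tested members, 4 were higher and 1 was lower, and 9 fold changes were positive and 8 negative. Against vehicle, 26 of the 31 constitutive subunits were higher, again with all fold changes positive.

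In the core, 6 of 7 alpha subunits were higher against vehicle (median 0.29) and 6 of 7 against the low dose (median 0.24). PSMA3 (chr14:58244831-58272012, plus strand), an alpha ring subunit, had 66.4, 79.2 and 70.0 CPM in vehicle, 80.1, 83.0 and 83.0 CPM at 20 µg/mL and 102, 96.8 and 102 CPM at 500 µg/mL. The 3 groups did not overlap, and the high dose was 0.49 ± 0.0486 SE above vehicle (adjusted p = 5.9e-09) and 0.29 ± 0.0487 SE above the low dose (adjusted p = 5.5e-05). PSMA3 overlaps the antisense RNA PSMA3-AS1, and whether strand was used in counting is not given in the sources used here. PSMA3-AS1 was lower at 500 than at 20 µg/mL (-0.22 ± 0.0597 SE, adjusted p = 0.0062).

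Of the constitutive beta subunits, 6 of 7 were higher against vehicle (median 0.17) and 7 of 7 against the low dose (median 0.20). PSMB5, the subunit with chymotrypsin-like activity, had 62.6, 62.1 and 63.4 CPM in vehicle and 72.3, 79.9 and 70.8 CPM at 500 µg/mL, without overlap (0.26 ± 0.0519 SE, adjusted p = 0.00023). PSMB7, with trypsin-like activity, had 128, 128 and 133 CPM in vehicle and 145, 156 and 146 CPM at 500 µg/mL (0.21 ± 0.042 SE, adjusted p = 0.00021). PSMB6, with caspase-like activity, overlapped between vehicle (68.1, 67.5 and 73.5 CPM) and the high dose (73.6, 75.7 and 69.4 CPM). It did not pass against vehicle (0.08 ± 0.0474 SE, adjusted p = 0.21) and was higher than at 20 µg/mL, where it had 62.6, 62.8 and 66.3 CPM (0.19 ± 0.0481 SE, adjusted p = 0.0038).

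All 6 ATPases of the 19S particle were higher in both comparisons, and against the low dose their fold changes lay between 0.25 and 0.29. Of the 11 non-ATPase subunits, 8 were higher against vehicle and 10 against the low dose. PSMD12 (chr17:67337916-67366627, minus strand), a scaffold subunit of the 19S lid, had 181, 217 and 192 CPM in vehicle, 230, 228 and 229 CPM at 20 µg/mL and 288, 272 and 282 CPM at 500 µg/mL. It was the largest rise against vehicle, 0.52 ± 0.0462 SE (adjusted p = 7.1e-10), and rose by 0.29 ± 0.0461 SE between the doses (adjusted p = 1.9e-05). PSMD12 was already higher than vehicle at 20 µg/mL (0.23 ± 0.0462 SE, adjusted p = 0.00089), a call lost when edgeR was fitted on these 2 groups alone (0.22, adjusted p = 0.1).

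PSMD11, another lid subunit, had 288, 284 and 288 CPM in vehicle, 300, 297 and 295 CPM at 20 µg/mL and 364, 359 and 359 CPM at 500 µg/mL. Its groups were tight and did not overlap, and the high dose stood 0.28 ± 0.0355 SE above the low dose (adjusted p = 9e-07). PSMD2, a large base subunit that binds ubiquitin-like domains, had 254, 251 and 242 CPM in vehicle, 248, 241 and 251 CPM at 20 µg/mL and 288, 315 and 291 CPM at 500 µg/mL. The low dose overlapped vehicle and the high dose lay above both (0.27 ± 0.0403 SE against the low dose, adjusted p = 9e-06). PSMD14, the deubiquitinase of the lid, went from 89.2, 81.1 and 87.5 CPM at 20 µg/mL to 105, 110 and 109 CPM at 500 µg/mL (0.33 ± 0.0532 SE, adjusted p = 2.8e-05). PSMD8 differed between the references: it was lower than vehicle at 20 µg/mL (-0.13 ± 0.0435 SE, adjusted p = 0.034) and higher at 500 than at 20 µg/mL (0.17 ± 0.0437 SE, adjusted p = 0.0047).

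**Figure D2:**
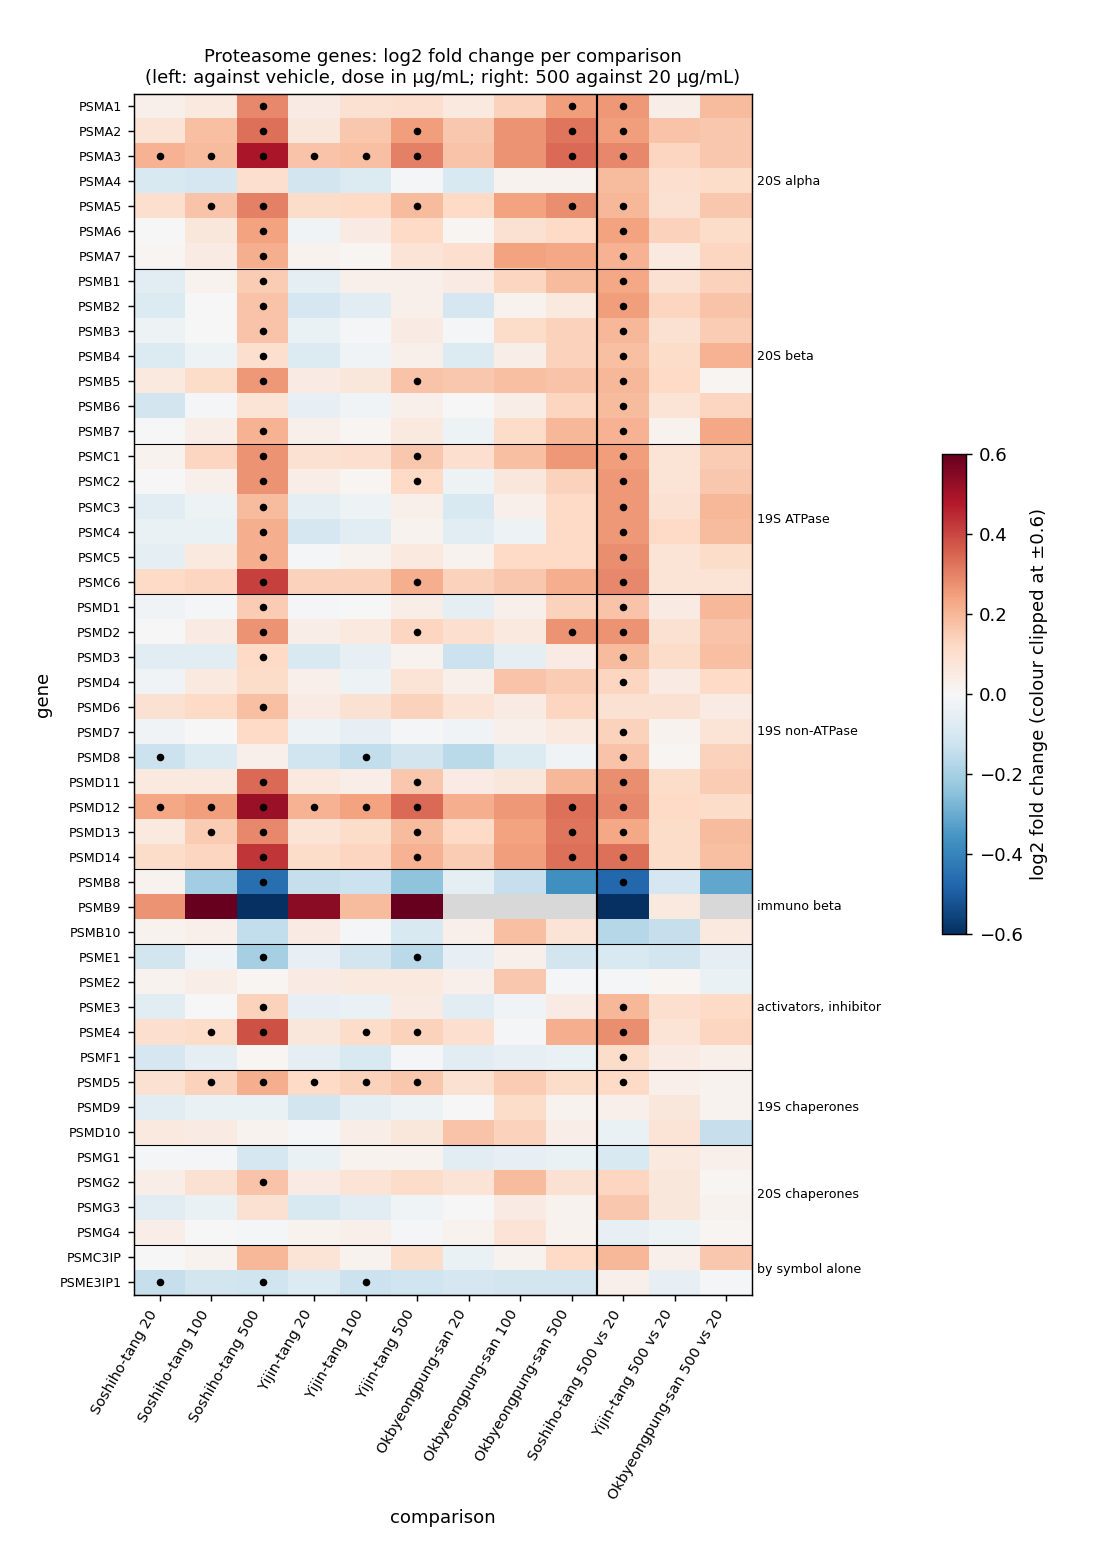
Log2 fold change (colour, clipped at ±0.6) of 48 members (rows, grouped by role) in 12 comparisons (columns; left of the line against vehicle with the dose in µg/mL, right of it 500 against 20 µg/mL); dots mark an adjusted p below 0.05 and grey a gene not tested. Dots fill the 2 Soshiho-tang columns at the highest dose in the core and 19S rows, where 26 and 29 of 31 genes carry one, while PSMB8 is blue in both.

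The immunoproteasome genes did not follow the constitutive ones. PSMB8 (chr6:32840717-32844703, minus strand) had 5.85, 6.29 and 6.14 CPM in vehicle, 5.5, 6.18 and 6.63 CPM in Soshiho-tang at 20 µg/mL, 5.64, 4.94 and 5.08 CPM at 100 µg/mL and 3.9, 4.73 and 4.61 CPM at 500 µg/mL. All libraries of the high dose lay below vehicle and below the low dose. PSMB8 fell by 0.45 ± 0.101 SE against vehicle (adjusted p = 0.0008) and by 0.47 ± 0.104 SE against the low dose (adjusted p = 0.001), and both calls held under every alternative tried. It rested on 80 to 211 counts per library.

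PSMB10 had 18.6, 18.5 and 18.9 CPM in vehicle and 16.4, 17.9 and 15.5 CPM at 500 µg/mL, without overlap, but did not pass (-0.15 ± 0.0635 SE, adjusted p = 0.06). PSMB9 stayed at or below 0.569 CPM in every library and did not pass in any comparison in which it was tested. The log2 ratio of PSMB8 to PSMB5, the subunit it replaces, was -3.36 ± 0.0573 (SD, n = 3) in vehicle, -3.41 ± 0.117 in Soshiho-tang at 20 µg/mL, -3.68 ± 0.171 at 100 µg/mL and -4.08 ± 0.136 at 500 µg/mL. At 500 µg/mL of the other formulas it was -3.78 ± 0.087 (SD, n = 3) for Yijin-tang, -3.92 ± 0.195 (SD, n = 2) for Okbyeongpung-san and -4.05 for the single Soyo-san library. In every formula, the highest dose had the lowest mean ratio of its 3 doses.

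**Figure D3:**
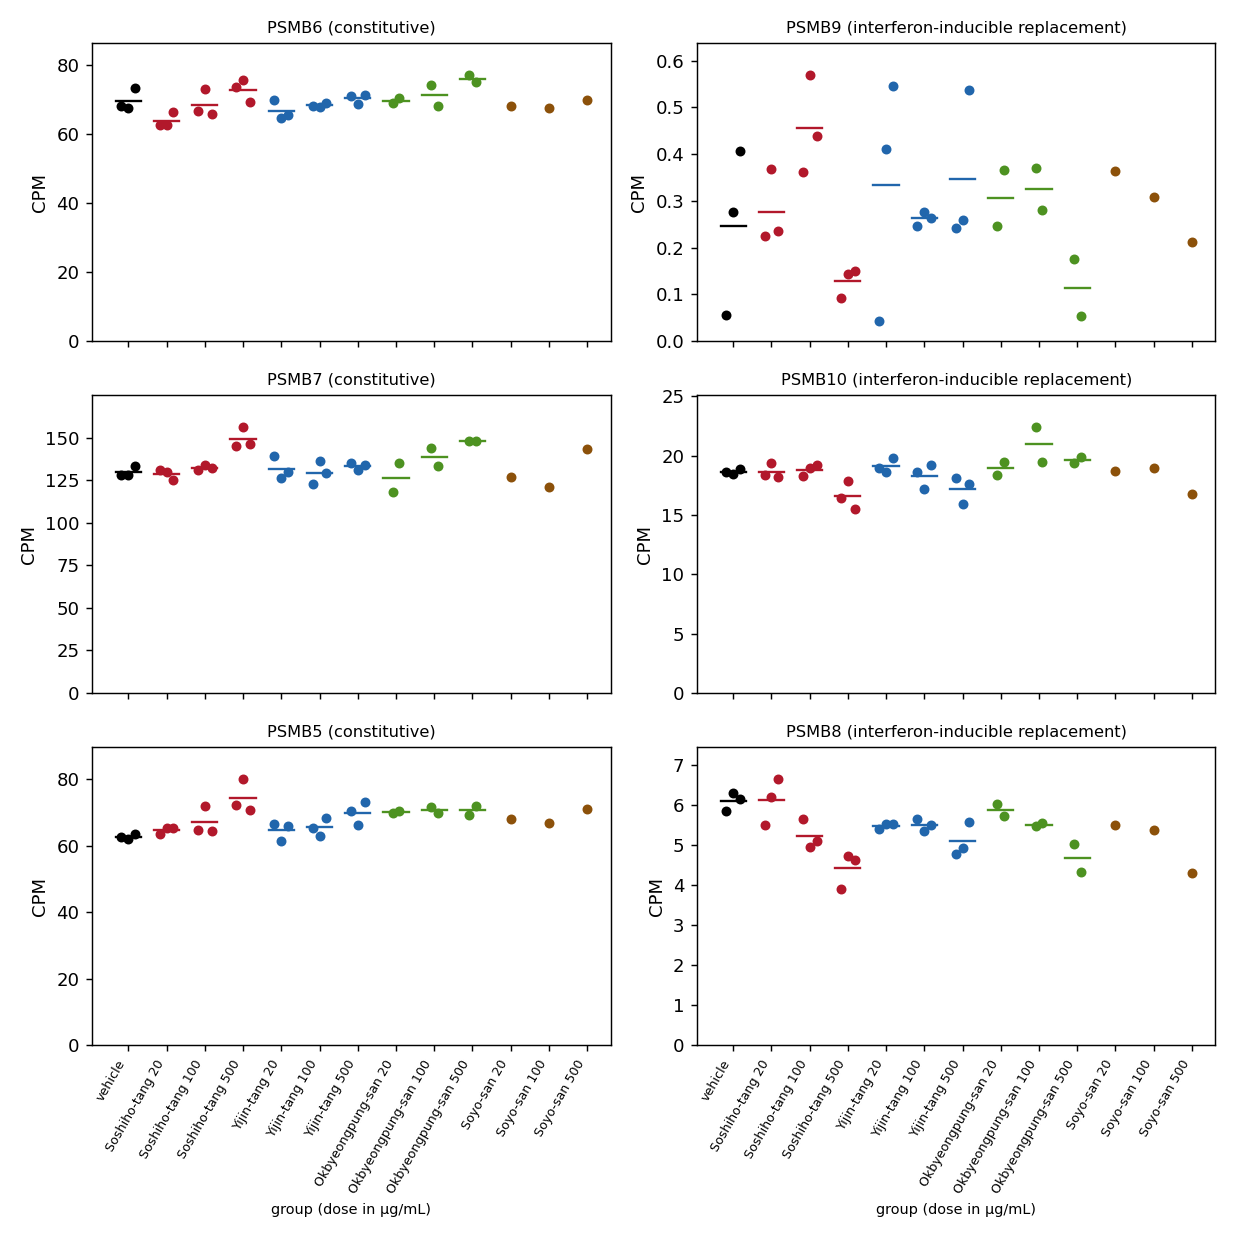
CPM per library (points; horizontal lines are group means) of the catalytic subunits PSMB6, PSMB7 and PSMB5 (left) and of their interferon-inducible replacements PSMB9, PSMB10 and PSMB8 (right), by group with the dose in µg/mL. PSMB8 lies between 3.9 and 4.73 CPM in Soshiho-tang at 500 µg/mL and between 5.85 and 6.29 CPM in vehicle, while PSMB9 reaches at most 0.569 CPM.

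Among proteins that cap the core, PSME4 (chr2:53864067-53970840, minus strand), the PA200 activator, had 148, 150 and 149 CPM in vehicle, 156, 160 and 157 CPM in Soshiho-tang at 20 µg/mL and 190, 191 and 194 CPM at 500 µg/mL. Its 3 groups did not overlap, and the rise was 0.38 ± 0.0342 SE against vehicle (adjusted p = 1.2e-09) and 0.28 ± 0.0343 SE against the low dose (adjusted p = 4e-07). PSME3 was higher in both comparisons (0.14 ± 0.0393 SE and 0.20 ± 0.0395 SE). PSME1, a subunit of the interferon-inducible PA28 activator, had 75.1, 84.6 and 91.3 CPM in vehicle and 73.5, 74.4 and 68.2 CPM at 500 µg/mL. It was lower than vehicle (-0.20 ± 0.0528 SE, adjusted p = 0.003) and did not pass against the low dose (-0.09 ± 0.0534 SE, adjusted p = 0.2). PSME2, its partner in PA28 and its near neighbour on chromosome 14, gave 0.01 ± 0.0523 SE and -0.01 ± 0.0529 SE and passed in neither. The inhibitor PSMF1 gave 0.01 ± 0.0398 SE against vehicle and was higher against the low dose (0.11 ± 0.0402 SE, adjusted p = 0.046).

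Assembly chaperones moved little. PSMD5, which binds the base during 19S assembly, was higher against vehicle (0.22 ± 0.0413 SE, adjusted p = 0.00013) and against the low dose (0.12 ± 0.0416 SE, adjusted p = 0.029), whereas PSMD9 and PSMD10 gave fold changes between -0.04 and 0.03 and did not pass. Of the 20S chaperones, PSMG2 was higher against vehicle (0.17 ± 0.0488 SE, adjusted p = 0.0058) and missed the threshold against the low dose (0.13 ± 0.0492 SE, adjusted p = 0.052). PSMG1, PSMG3 and PSMG4 passed in neither comparison. Of the 2 members that are no subunits, PSME3IP1 had 70.7, 76.4 and 81.3 CPM in vehicle and 71.1, 69.4 and 68.5 CPM at 500 µg/mL. These ranges overlapped, and it was lower than vehicle (-0.12 ± 0.0454 SE, adjusted p = 0.044) with 0.03 ± 0.0461 SE against the low dose, and PSMC3IP passed in neither.

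At lower doses of Soshiho-tang few members differed from vehicle. At 100 µg/mL, 6 of 48 were higher and none was lower by edgeR (18.2% of all genes called, 11.1% higher and 7.05% lower): PSME4, PSMD5, PSMA3, PSMA5, PSMD13 and PSMD12. At 20 µg/mL, PSMA3 and PSMD12 were higher and PSMD8 and PSME3IP1 were lower (16.9% of all genes called, 10.6% higher and 6.34% lower). The share of members called higher was near that of all genes at 100 µg/mL and below it at 20 µg/mL. With p unadjusted, 12 members were higher and 2 lower at 100 µg/mL at p below 0.05, where 17.8% and 12.9% of all genes were, and DESeq2 called none lower there. Fitted on the groups compared alone, edgeR called no member at either dose. Without vehicle replicate 1, 13 members were lower than vehicle at 20 µg/mL and 5 at 100 µg/mL. Without vehicle replicate 3, or without replicate 3 of the dose, no member was lower at 20 µg/mL by edgeR. Without replicate 2 of the dose, 2 members were higher at 100 µg/mL. For the runs with a library left out, the shares of all genes called are not given here, so these counts are not particular to the members.

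Yijin-tang at 500 µg/mL was also set against vehicle and its own low dose. Against vehicle, 14 of 48 were higher and 1, PSME1, was lower, with a median of 0.06; 21% of all genes were called, 12.7% higher and 8.39% lower. The 12 constitutive subunits among the 14 included PSMD12 (244, 250 and 242 CPM; 0.34 ± 0.0462 SE, adjusted p = 9.7e-06), PSMA3 (84.6, 88.9 and 89.1 CPM; 0.30 ± 0.0487 SE, adjusted p = 7.7e-05) and PSMD13, a lid subunit (155, 149 and 156 CPM against 134, 139 and 134 CPM in vehicle; 0.19 ± 0.0406 SE, adjusted p = 0.0012). In all 3 genes the dose lay above every vehicle library. Without Yijin-tang replicate 3 at 500 µg/mL 7 members were higher, and without its replicate 1, 8. Fitted on vehicle and this dose alone, edgeR called 2 higher and none lower, and 2 of the 15 calls held in every alternative run. For these runs, the shares of all genes called are not given here. PSME1 had 76.7, 72.4 and 73.4 CPM and overlapped vehicle (-0.16 ± 0.0525 SE, adjusted p = 0.032).

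Between 20 and 500 µg/mL of Yijin-tang, edgeR called no member in either direction, where 1.86% of all genes were called, 0.724% higher and 1.13% lower, and DESeq2 called none. All 31 constitutive subunits had a positive fold change, from 0.01 for PSMD8 to 0.17 for PSMA2, with a median of 0.09. At an unadjusted p below 0.05, 15 members were higher and 1 was lower, where 5.94% and 6.41% of all genes were. Fitted on these groups alone, edgeR called 9 members higher, and the share of all genes called in that fit is not given here. Against vehicle, the 100 µg/mL dose had 4 higher and 2 lower members (18.4% of all genes called, 11.1% higher and 7.37% lower) and the 20 µg/mL dose 3 higher and none lower by edgeR (17% of all genes called, 10.3% higher and 6.66% lower). At both of those doses the share of members called higher did not exceed that of all genes. PSMA3, PSMD12 and PSMD5 were among the higher members at both, and edgeR fitted on the groups compared alone called no member at either. At an unadjusted p below 0.05, 5 members were higher and 4 lower at 20 µg/mL, where 17.2% and 12.8% of all genes were, and DESeq2 called 1 lower. Without vehicle replicate 1, 1 member was higher and 7 lower at 100 µg/mL, and 1 was higher and 12 lower at 20 µg/mL. For that run too, the shares of all genes called are not given here.

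The 2 formulas with 3 libraries per dose were set against each other at the labelled 500 µg/mL. In Soshiho-tang 16 of 48 members were higher than in Yijin-tang and none was lower by edgeR (12.9% of all genes called, 6.54% higher and 6.38% lower), with 1 lower at an unadjusted p below 0.05 and none by DESeq2. All 31 constitutive subunits had a positive difference, with a median of 0.13, and 15 of them passed, 5 of the 6 ATPases included. PSME4 had the smallest adjusted p, with 162, 161 and 164 CPM in Yijin-tang and 190, 191 and 194 CPM in Soshiho-tang (0.23 ± 0.0343 SE, adjusted p = 1.4e-05). PSMD11 had 323, 324 and 308 CPM in Yijin-tang and 364, 359 and 359 CPM in Soshiho-tang (0.18 ± 0.0355 SE, adjusted p = 0.00086). For both genes the formulas did not overlap. With library totals in place of TMM the count was 7, and without Yijin-tang replicate 2 at 500 µg/mL it was 8 and without Soshiho-tang replicate 2 it was 10. For these runs, the shares of all genes called are not given here.

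The change from 20 to 500 µg/mL was itself compared between these formulas, which needs no vehicle library. It was larger in Soshiho-tang for 2 members, PSME4 (by 0.20 ± 0.0486 SE, adjusted p = 0.01) and PSMA1 (by 0.22 ± 0.0593 SE, adjusted p = 0.03), and smaller for none by edgeR; 4.58% of all genes were called, 2.15% larger and 2.42% smaller. PSMA1, an alpha ring subunit, had 153, 153 and 162 CPM at 20 µg/mL and 195, 183 and 185 CPM at 500 µg/mL of Soshiho-tang, beside 158, 156 and 164 CPM and 165, 156 and 170 CPM in Yijin-tang. Its doses were apart in Soshiho-tang and overlapped in Yijin-tang. Counted in either direction, the share of members called was near that of all genes. Of the 31 constitutive subunits 30 had a positive difference and PSMD6 had 0.00, with a median of 0.14. For PSMB8 the difference was -0.37 ± 0.145 SE and did not pass (adjusted p = 0.18). At an unadjusted p below 0.05, 16 members were larger and 1 was smaller in Soshiho-tang, where 7.34% and 8.3% of all genes were, and DESeq2 called 5 larger and none smaller. Fitted on the 4 groups alone, edgeR called 12 larger. The shares of all genes called by DESeq2 and in that fit are not given here.

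**Figure D4:**
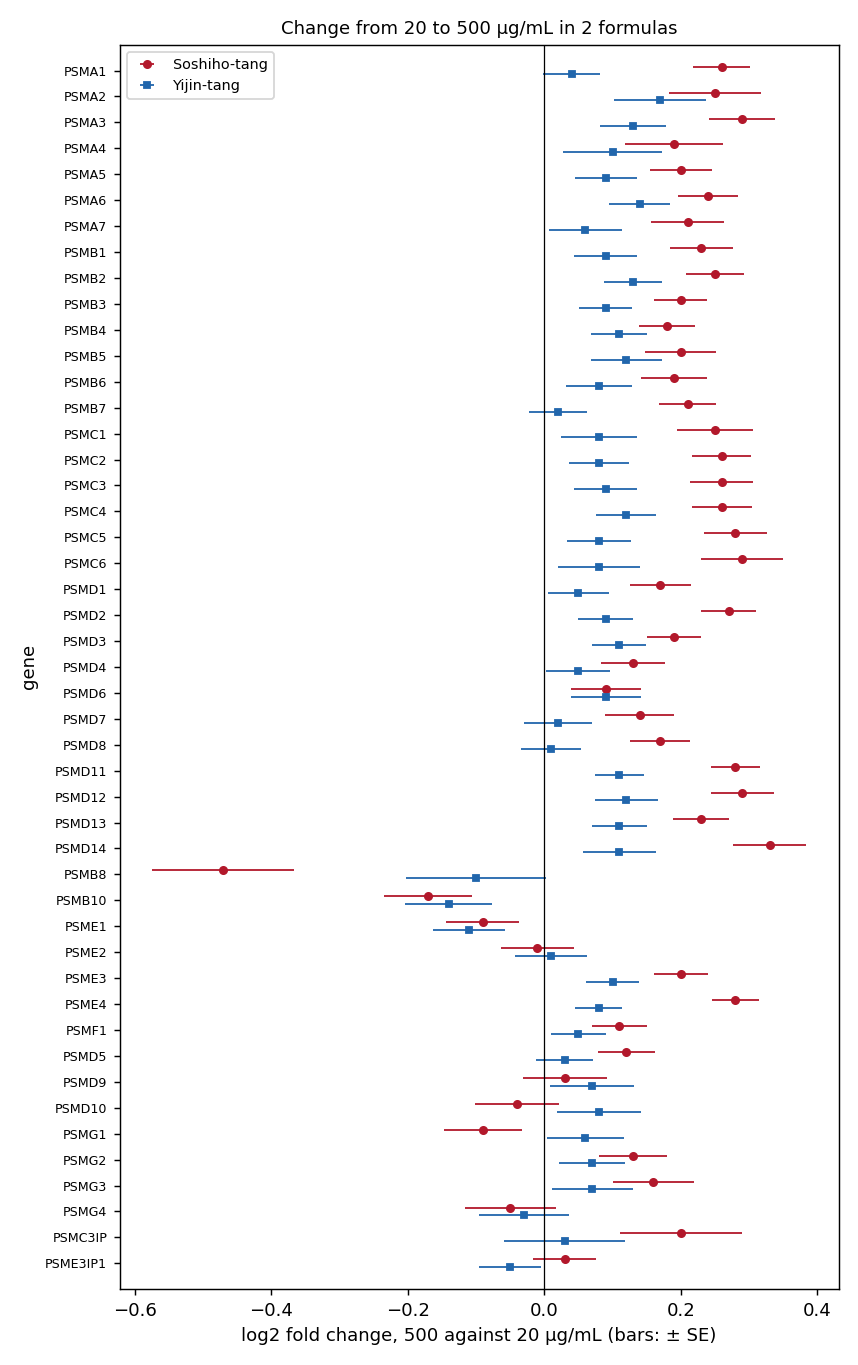
Log2 fold change between 20 and 500 µg/mL (points, with bars of ± 1 SE) of 47 members in Soshiho-tang (red circles) and Yijin-tang (blue squares); PSMB9, with 1 to 14 counts per library, is left out. All 31 PSMA, PSMB, PSMC and PSMD subunits from PSMA1 to PSMD14 lie right of 0 in both formulas, and only PSME4 and PSMA1 passed the test of the difference between formulas.

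Okbyeongpung-san at 500 µg/mL had 8 of 47 tested members higher than vehicle and none lower by edgeR, with a median of 0.12 (4.38% of all 15762 genes called, 2.19% in each direction). All 8 were constitutive subunits: PSMA1, PSMA2, PSMA3, PSMA5, PSMD2, PSMD12, PSMD13 and PSMD14. PSMD13 had 167 and 170 CPM against 134, 139 and 134 CPM in vehicle (0.32 ± 0.0613 SE, adjusted p = 0.015). PSMA5, an alpha ring subunit, had 121 and 120 CPM against 97.4, 100 and 101 CPM (0.28 ± 0.059 SE, adjusted p = 0.022), and PSMD2 had 301 and 299 CPM (0.27 ± 0.0588 SE, adjusted p = 0.025). Each of these lay above all vehicle libraries. The count fell to 0 without vehicle replicate 3, without either library of the dose, or with batch as a term in the fit. It was 1 with the 2 groups fitted alone, 20 with all 27 replicated libraries in the fit and 10 with DESeq2. The shares of all genes called in those runs are not given here.

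The 2 Okbyeongpung-san replicates come from different batches by their titles, E and D. The labels do not define a batch, and vehicle is of batch E. In the batch E library at 500 µg/mL, 38 of 48 members lay above the vehicle mean and 36 above the batch E library at 20 µg/mL, with a median of 0.12 in both. In the batch D library, 38 lay above the vehicle mean and 41 above the batch D library at 20 µg/mL, with medians of 0.11 and 0.10. Both libraries were set against the same vehicle mean, and the shares of all genes above each reference are not given here. Between 20 and 500 µg/mL edgeR called no member (0.558% of all genes called, 0.247% higher and 0.311% lower) and DESeq2 none, while all 31 constitutive subunits had a positive fold change (median 0.15) and 15 members were higher and 1 lower at an unadjusted p below 0.05, where 3.35% and 4.23% of all genes were. For this dose comparison edgeR called 20 members higher when fitted on its 2 groups alone and 5 when fitted on all 27 replicated libraries. The shares of all genes called in those fits are not given here. At 100 and 20 µg/mL edgeR and DESeq2 called no member against vehicle (0.108% of all genes called by edgeR at 100 µg/mL, 0.0444% higher and 0.0634% lower, and 0.273% at 20 µg/mL, 0.14% higher and 0.133% lower), and at an unadjusted p below 0.05 15 and 3 were higher and 0 and 1 lower. The shares of all genes at that p were 7.89% higher and 7.35% lower at 100 µg/mL, and 10% and 9.42% at 20 µg/mL. Without Okbyeongpung-san replicate 2 at 100 µg/mL, edgeR again called 0 members at that dose. PSMB8 at 500 µg/mL had 5.01 and 4.31 CPM, below every vehicle library, but did not pass (-0.37 ± 0.119 SE, adjusted p = 0.095).

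Soyo-san had 1 library per dose, all of batch D, and no test was possible. At 500 µg/mL, 26 of 48 members lay above all 3 vehicle libraries and 7 below them, where 29.4% of all 16885 genes lay above and 30.6% below, and the members' median difference from the vehicle mean was 0.10 on the log2 scale. The largest rises were PSMD12 (252 CPM, 0.36 above the vehicle mean), PSMA2 (110 CPM, 0.34) and PSMA3 (88.6 CPM, 0.31), and the largest fall was PSMB8 (4.29 CPM, -0.50). At 100 µg/mL 18 members lay above and 5 below, and at 20 µg/mL 14 above and 11 below, with medians of 0.03 and 0. Of all genes, 27% lay above and 27.9% below at 100 µg/mL, and 28.9% above and 27.4% below at 20 µg/mL, so the share of members above at 20 µg/mL was near that of all genes. Against the Okbyeongpung-san library of the same batch and dose, the median at 500 µg/mL was -0.02. These differences have no replicate check.

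Genes that work with the proteasome but lack the symbol were counted from lists for Soshiho-tang at 500 µg/mL. Of all genes, 21% were higher and 18.3% lower against vehicle, and 13.3% and 13.5% against the low dose. Of 12 other proteasome and assembly genes, 8 were higher and 1 lower against vehicle, and 10 were higher and none lower by edgeR against the low dose. The smallest adjusted p against vehicle belonged to the proteasome adaptor ECPAS (0.33, adjusted p = 1.8e-08), to ZFAND5, which binds and activates the proteasome (0.36, adjusted p = 3.4e-08), to the deubiquitinase USP14 (0.31, adjusted p = 1.2e-06) and to the ubiquitin ligase UBE3C (0.20, adjusted p = 1.8e-05). The lower gene was the 19S chaperone PAAF1 (-0.24, adjusted p = 0.0065), named after its value was seen. Of 13 genes of ubiquitin and substrate delivery, 5 were higher and 2 lower against vehicle, led by the shuttle factor RAD23B (0.32, adjusted p = 1e-07). The share of lower genes in that list was near the 18.3% of all genes.

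The shares of all genes were again 21% higher and 18.3% lower against vehicle, and 13.3% and 13.5% against the low dose. Of 11 genes that control proteasome transcription, 6 were higher and none lower by edgeR in both comparisons. NFE2L1, named after its value was seen, was not among them (0.03 against vehicle, adjusted p = 0.52; 0.04 against the low dose, adjusted p = 0.43). NFE2L2 was (0.32, adjusted p = 3e-06; 0.22, adjusted p = 0.00057), as were its small partner factors MAFG (0.47 and 0.38) and MAFF (0.48 in both). DDI2, the protease that cuts NFE2L1, was higher against vehicle (0.33, adjusted p = 4.9e-07) with 0.03 against the low dose (adjusted p = 0.69). Transcript levels give no measure of the processing of these factors. Of 9 genes of antigen processing and its regulators, 2 were higher and 3 lower against vehicle, where 21% and 18.3% of all genes were: IRF1 (0.43) and TAP2 (0.30) were higher, and TAPBP (-0.35), TAP1 (-0.32, named after its value was seen) and B2M (-0.16) were lower. The share of higher genes in this list was near the 21% of all genes. B2M overlapped between vehicle (251, 295 and 321 CPM) and the high dose (268, 244 and 259 CPM). Against the low dose IRF1 and TAP2 were higher and TAPBP was lower.

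The promoter motifs were set beside the Soshiho-tang dose comparison as a description. Of the tested members with an antioxidant response element core in their window, 8 of 15 were higher at 500 than at 20 µg/mL, beside 20 of 27 without one. With the core of the interferon-stimulated response element 1 of 7 was higher, PSMB4, beside 27 of 35 without one. With the CCAAT box, bound by nuclear factor Y, 14 of 21 were higher, beside 14 of 21 without it; 22 of 44 members (50%) held it, and 34.6% of all windows. The ETS core CCGGAAG was held by 17 members (38.6%; 10.3% of all windows), and TTCNNNGAA, the core of the interferon gamma activated site, by 8 (18.2%; 7.66% of all windows). With the ETS core 11 of 16 were higher, beside 17 of 26 without it, and with TTCNNNGAA 6 of 7 were higher, beside 22 of 35 without it. The 2 interferon motifs thus differed in the direction of this tally. A match is a run of letters in a fixed window, searched on both strands, and not a measured binding site.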

How the data were processed

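The authors deposited 1 table of expected counts (RSEM gene estimates, without normalisation) for 30 libraries; its 30 unnamed columns were empty. Tools listed per the submitters' processing notes are RSEM 1.3.3, STAR 2.7.3a, Trim Galore 0.6.5 and FastQC 0.11.9, with build GRCh38. Which annotation was counted is not given in the sources used here. Per the labels' protocols, RNA integrity numbers were above 7 and reads were 100 bp paired-end from a directional kit. Groups, doses, batches and replicate numbers came from the labels. Expected counts divide reads between genes that share sequence, so members with pseudogenes or overlapping genes are less certain. Symbols were found for 56558 of 60675 identifiers, and 57055 were found in GENCODE 29.

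Counts were rounded to whole numbers and analysed with edgeR 4.0.16 in R 4.3.3 (filterByExpr, TMM, robust quasi-likelihood F-test). Vehicle, Soshiho-tang and Yijin-tang shared a fit of 21 libraries (15882 genes, biological coefficient of variation 4.7%), and vehicle and Okbyeongpung-san one of 9 libraries (15762 genes, 7%). P-values were adjusted by Benjamini-Hochberg over all genes of a fit at 0.05. CPM come from one TMM scaling of all 30 libraries, with a prior count of 2 for log values. Levels per kb use the longest coding transcript annotated as principal. Of the 50 members, 48 passed the filter in the first fit and 47 in the second; PSMA8 and PSMB11 passed in neither and PSMB9 not in the second. Every member could be named. Values in every library are given for PSMB5 to PSMB10 and for the 3 called members with the smallest adjusted p in each direction in each comparison of 500 µg/mL; PSMD14 was added after its values were seen. Of each other list, up to 4 genes with the smallest adjusted p were named, with exceptions stated. The test was tried on simulated data. Every pair of replicates differed by more than counting noise (chi-square divided by degrees of freedom, 2.41 to 20.6). Depth sets precision through these counts, and the limit given for a count of 0 covers counting error only. Alternatives were DESeq2 1.42.0, RLE scaling, library totals, no filter, other sets of libraries, a replicate block, batch as a term and each replicate left out. The members and gene lists were chosen with earlier results of these data known. Wortmannin, a positive control named in the design text, is not analysed here.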

Additional observations from a re-analysis of the deposited data

Results flagged for a closer look

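The change from 20 to 500 µg/mL differed between Soshiho-tang and Yijin-tang, by a test of the difference itself, for PSME4 (0.20 ± 0.0486 SE larger in Soshiho-tang, adjusted p = 0.01) and for PSMA1 (0.22 ± 0.0593 SE, adjusted p = 0.03), 2 of 48 members tested by edgeR, where 4.58% of all genes were called. That count was near the share of all genes, and 0 of the 2 calls held in every alternative run. PSME4 encodes the PA200 activator and PSMA1 an alpha ring subunit. Across the alternatives the difference for PSME4 lay between 0.17 and 0.23, with an adjusted p of 0.094 with library totals and 0.069 with no filter. For PSMA1 it lay between 0.18 and 0.25, with an adjusted p of 0.13 with library totals and between 0.067 and 0.091 without Soshiho-tang replicate 1 at 500 µg/mL, replicate 1 or 2 at 20 µg/mL, Yijin-tang replicate 2 at 500 µg/mL or replicate 3 at 20 µg/mL. The labelled doses may differ from those used.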

How the results depend on the processing

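Over the alternatives run, Soshiho-tang at 500 µg/mL had 22 to 31 members higher than vehicle and 29 to 36 higher than its low dose; of 33 and 34 calls in these 2 comparisons, 24 and 28 held throughout, beside 2 of 15 for Yijin-tang, 7 of 16 between formulas and 0 of 8 for Okbyeongpung-san. No gene reversed a call. Scaling moved the median of all genes by at most 0.057.

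With library totals, counts became 2 lower (Soshiho-tang 500 against 20), 4 higher and 0 lower (Soshiho-tang 20), 0 lower (Yijin-tang 500), 9 higher and 0 lower (Yijin-tang 100), 7 higher between formulas and 0 for the difference in dose change. Fitting only the groups compared gave 0 higher for Soshiho-tang 100 and 20 and Yijin-tang 100 and 20, 0 lower for Soshiho-tang 20 and Yijin-tang 100, 2 higher and 0 lower for Yijin-tang 500, 9 higher for Yijin-tang 500 against 20, 1 for Okbyeongpung-san 500, 20 for its 500 against 20, and 12 for the difference in dose change. With all 27 replicated libraries in one fit, Okbyeongpung-san had 20 higher and 1 lower at 500, 5 higher against its low dose, 11 higher at 100 and 2 higher and 1 lower at 20, and Yijin-tang 500 had 2 lower; batch as a term gave 0 higher for Okbyeongpung-san 500. With no filter, Yijin-tang had 2 lower at 500, 1 higher against its low dose, 2 higher at 100 and 1 higher and 3 lower at 20, and the dose change 1. DESeq2 gave 3 lower (Yijin-tang 500), 1 lower (Yijin-tang 20) and 5 for the dose change, and RLE scaling 2 and 1 lower. Without mitochondrial genes, chosen after seeing the data, 1 was lower (Soshiho-tang 100), 2 (Yijin-tang 500) and 1 (Yijin-tang 20). Against Okbyeongpung-san replicate 3, medians for Soyo-san were -0.02, -0.03 and -0.04 at 500, 100 and 20. The causes were not tested. Shares of all genes called in the alternative runs are not given, so a change in these counts is not particular to the members.

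Leaving out 1 library gave these ranges. Soshiho-tang had 24 to 31 higher and 2 to 4 lower at 500, 29 to 32 and 1 to 2 against its low dose, 2 to 8 and 0 to 5 at 100, and 2 to 4 and 0 to 13 at 20. Yijin-tang had 7 to 16 higher and 0 to 5 lower at 500, 1 to 7 and 0 to 7 at 100, and 1 to 5 and 0 to 12 at 20. Okbyeongpung-san had 0 to 10 higher at 500, 0 to 4 at 100, and 0 to 3 higher and 0 to 1 lower at 20. Between formulas 8 to 16 were higher, and for the dose change 1 to 2. At 20 and 100 µg/mL of Soshiho-tang and Yijin-tang the highest counts of lower members came without vehicle replicate 1. A dose left with 1 library is assumed to vary like the other groups.

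Replicate numbers did not pair the samples (correlations of same-numbered deviations between -0.07 and 0.06, none of 63 and 12 pairs over 0.1). With a replicate block, 30 and 32 members were higher in the 2 Soshiho-tang comparisons at 500, 15 for Yijin-tang, 17 between formulas and 8 for Okbyeongpung-san.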
